A study of Mus musculus with 4 samples.

Results

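The cytosolic ribosomal protein genes encode the protein components of the large (60S) and small (40S) subunits of the ribosome that translates messenger RNA in the cytoplasm. They were followed in mouse embryonic stem (ES) cells of the CGR8 line, in 2 arrays of cells given medium without leukemia inhibitory factor (LIF) and 2 arrays of cells kept with LIF at 1000 U/ml, after 2 days. LIF is the cytokine added to keep such cells undifferentiated, and both groups were otherwise grown alike, on gelatin in medium with serum replacement. The labels name 1 line and no further treatment or allele, and nothing in them states whether each array had a culture of its own. The p-values therefore rest on array-to-array spread alone, possibly technical. Members were genes whose symbol begins Rpl or Rps followed by a digit, together with Rpsa and the stalk genes Rplp0, Rplp1 and Rplp2, without S6 kinase genes, Rps19bp1 and pseudogenes. Only probe sets annotated to exactly 1 symbol were used, and the brightest of a gene stood for it. This gave 49 of the 18193 genes on the arrays: 22 of the large subunit, 21 of the small subunit and 6 paralogs of another ribosomal protein gene. A further 31 symbols of the same kind, among them Rpl5, Rplp1 and Rps27a, occurred only on probe sets that also carry other symbols.

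Each ribosome holds a single copy of nearly every ribosomal protein, so cells make these proteins in step and degrade those left unassembled. Their messenger RNAs are among the most abundant of dividing cells and share a terminal oligopyrimidine (TOP) tract, a run of pyrimidines that begins with C at the cap. Through that tract the kinase complex mTORC1 and the RNA-binding protein Larp1 set how many of these messages are translated, mostly without a change of their level, while MYC proteins promote transcription of the same genes and of the factors that assemble ribosomes.

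The annotated start sites were searched for such pyrimidine runs. RefSeq start windows of GRCm38.p6, 15 bases before to 15 bases after the first listed start, were found for 43 of the 49 members. On the sense strand a run was counted anywhere in these 30 bases, as a C followed by at least 4 letters that are each C or T, so it need not begin at the cap. Such a run was present in 27 of the 43 members (62.8%) and in 36.4% of all 27025 genes with a window. A run of 8 or more bases was present in 18 of the members (41.9%) and in 9.09% of all genes. The windows below are a selection, with the runs in capitals, so the share with a run among them is not that of the members. They show core members with a run, of which Rpl7a and Rpl35 have some of the longest (19 and 18 bases). They also show some of the paralog pairs whose signals are described later. From other pairs described later, Rpl7l1 and Rps4x hold no run in their windows and Rpl3l holds a run of 5 bases.
Rpl7a (chr2:26910792-26910821, + strand): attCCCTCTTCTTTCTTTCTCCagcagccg
Rpl35 (chr2:39005117-39005146, - strand): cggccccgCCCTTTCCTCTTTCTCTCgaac
Rps6 (chr4:86857353-86857382, - strand): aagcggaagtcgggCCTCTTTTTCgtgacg
Rpl39l (chr16:10170213-10170242, + strand): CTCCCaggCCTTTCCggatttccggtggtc
Rpl39 (chrX:37085208-37085237, - strand): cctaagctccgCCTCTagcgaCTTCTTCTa
Rpl22l1 (chr3:28805493-28805522, + strand): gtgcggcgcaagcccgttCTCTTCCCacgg
Rpl22 (chr4:152325711-152325740, + strand): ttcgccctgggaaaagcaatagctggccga
Rps27l (chr9:66946071-66946100, + strand): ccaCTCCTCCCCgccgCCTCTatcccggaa
Rps27 (chr3:90213634-90213663, - strand): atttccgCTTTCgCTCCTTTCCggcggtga
Rpl22 holds no such run in this window, and 15 other members also lack one there; the annotated starts are those of RefSeq and were not measured in these cells. A match is a description of letters and not a measured cap site. The median log2 change without LIF was -0.05 over the 26 tested members with a run and -0.11 over the 16 without one.

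Values were MAS5 signals on a linear scale, with each array scaled to a common trimmed mean, so a signal is relative to the rest of its array and a change in the total amount of messenger RNA per cell cannot be seen. In bulk samples fewer cells of a type and less RNA per cell cannot be told apart. Median signals of the arrays lay between 59.6 and 95.5, and the highest signal of any probe set was 36401 and 50488 on the arrays without LIF, against 39698 and 45088 on those with LIF. All 12 ES cell markers, among them Pou5f1 and Sox2, lay above the low-signal filter. Their summed signal was 77473 and 106307 without LIF, against 128823 and 152150 with LIF. Summed over 10 markers, all above the filter, primitive endoderm read 1784 and 9541 without LIF, against 1638 and 4669.9 with LIF, and so were higher on the array numbered 2 in each group. The 8 markers of fibroblasts, 7 of them above the filter, summed to 2564 and 1045 without LIF, against 1569 and 582 with LIF, and were lower on the arrays numbered 2. Markers of trophoblast, mesoderm and neuroectoderm, with 6 of 8, 6 of 7 and 5 of 7 above the filter, summed to at most 4577. The part of other cell types in the values below was not tested.

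Relative to the trimmed mean of each array, signals of ribosomal protein messages differed little between the groups. Of the 49 members 48 lay above the filter and were tested. In limma's test across all 14445 tested genes (adjusted p of 0.05) 0 of them were called, against 0.145% of all genes. With so low a share over all genes, this count says little about the members. By direction, 0 members were called higher and 0 lower without LIF, against 0.0485% and 0.0969% of all tested genes. At an unadjusted p of 0.05 the count was also 0, against 10.9% of all tested genes, and the smallest unadjusted p of a member was 0.092. The median log2 change, without LIF minus with LIF, was -0.05 over the members and 0.09 over all tested genes. Changes of the members were also close to each other, with a standard deviation of 0.14 over members and 0.64 over all tested genes. Altogether 46 of the 48 (95.8%) differed by less than 1.3-fold between the groups, which held for 59.99% of all tested genes, and Rpl39 and Rpl39l were the exceptions. These sizes depend on the scaling: with a common median per array in its place, which moves every gene down by the same amount, the median was -0.34 over the members and -0.20 over all tested genes, and 29 of the 48 (60.4%) differed by less than 1.3-fold, against 51.4% of all. With single arrays left out the members' median lay between -0.20 and 0.086, and so took either sign.

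Under the scaling of the deposited values, the intervals show what size of change these 4 arrays leave possible. A common median per array would move every interval down alike, so the counts below hold for the deposited scaling only. The widths rest on array-to-array spread, possibly technical, and also draw on the spread of other genes. The 95% interval of the log2 change contained 0 for all 48 members. It lay wholly within 2-fold in either direction for 44 of them (91.7%), against 45.9% of all tested genes, and wholly within 1.5-fold for 32 members. The 4 members with wider intervals were Rpl39, Rps27, Rpl3l and Rpl39l. Signals of the 4 arrays overlapped between the groups for most members. They were apart for 4 of 48 (8.33%), against 42.5% of all tested genes. Neither this comparison nor that of the intervals was matched for brightness. Bright genes of other kinds also differed little, as described below. Rpl7l1, Rps15 and Rps7 were the members with both arrays without LIF below both with LIF (15.2% of all tested genes), and Rps6 had both above (27.3% of all tested genes); Rps7 is named here because of these values.

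**Figure D1:**
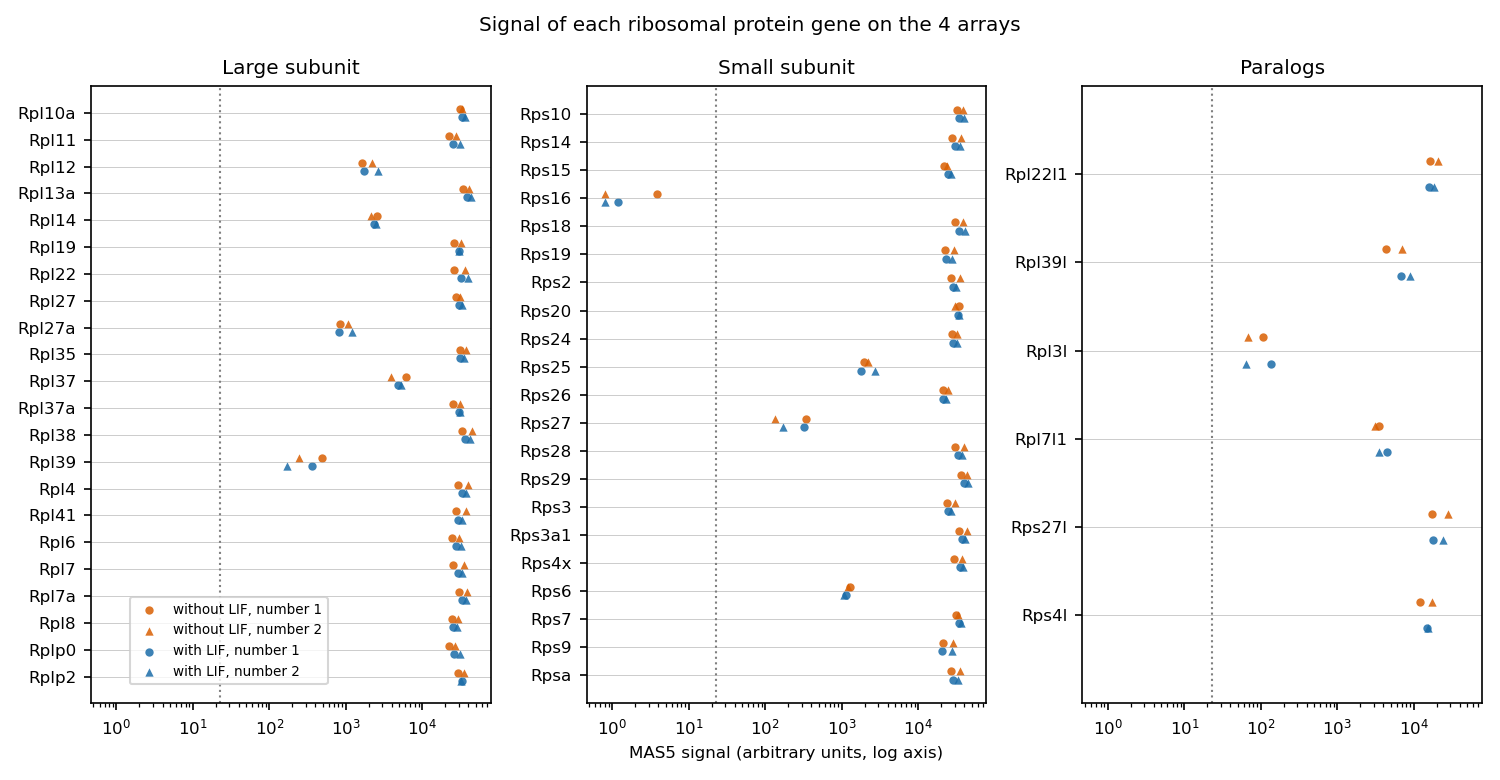
MAS5 signal (log axis) of each of the 49 ribosomal protein genes on the 4 arrays, by subunit; orange marks are arrays without LIF, drawn above the blue marks with LIF, circles are number 1 and triangles number 2, and the dotted line is the filter at a signal of 22.9. For most genes the 4 marks lie close together near the top of the scale, while others, such as Rps6 and Rpl12, lie lower. The marks of the dim genes Rpl39, Rps27 and Rpl3l lie further apart, and Rps16 is the gene to the left of the filter.

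**Figure D2:**
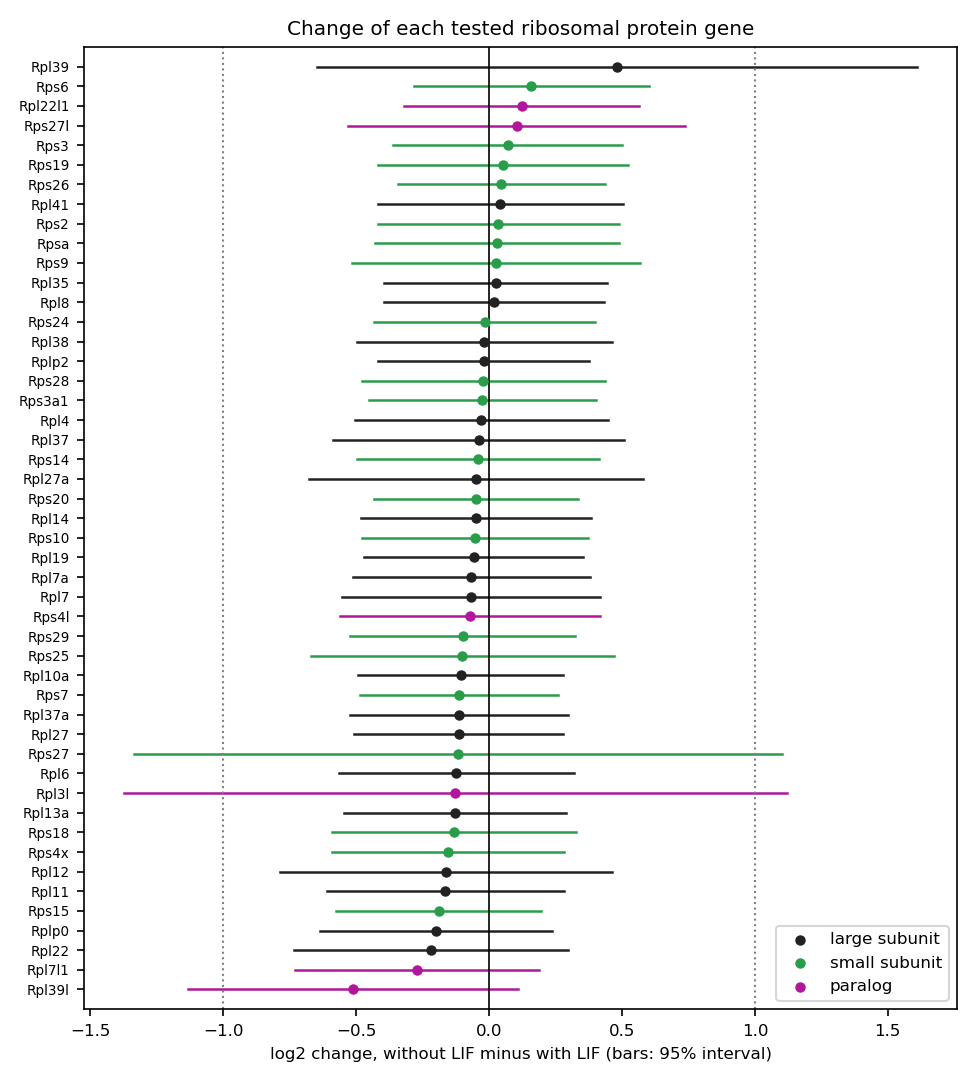
Log2 change (without LIF minus with LIF) of the 48 tested members, ordered by size, with 95% intervals as bars; dotted lines mark 2-fold in either direction. Every interval crosses 0, and the points lie between -0.51 for Rpl39l and 0.48 for Rpl39.

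The large subunit carries the peptidyl transferase centre and the exit tunnel. Its 22 members had a median log2 change of -0.06, with 0 called and 18 below 0 (81.8%). Values below 0 were found for 40.6% of all tested genes, and for 68 of the 85 other tested genes with a mean log2 signal over 14 (80.0%). Rpl11, which with Rpl5 and 5S RNA forms the particle that binds Mdm2 when ribosome assembly is disturbed, read 22441 and 27606 without LIF, against 25395 and 30639 with LIF (log2 change -0.16, 95% interval -0.61 to 0.28). The spread between the arrays of each group was larger than the difference between the groups. Rpl13a, a surface protein that in human monocytes also takes part in silencing of inflammatory messages, read 34335 and 40808.5 without LIF, against 38406.5 and 43595 with LIF (log2 change -0.13, interval -0.54 to 0.29). Rpl38, which in mouse embryos is needed for translation of Hox messages, read 33040 and 44486 without LIF, against 35812 and 42104 with LIF (log2 change -0.02, interval -0.50 to 0.46). For Rpl38 the arrays without LIF lay on both sides of those with LIF. Rpl22, an RNA-binding protein of the large subunit, read 26136 and 35954 without LIF, against 31705 and 40127 with LIF (log2 change -0.22, interval -0.73 to 0.30). It had the lowest value among members that are not paralogs, and its arrays overlapped. Its other probe sets read 0.00 and 0.62 on the log2 scale, the second from signals of 4417 and 3427 without LIF, against 2273 and 2814 with LIF.

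The stalk proteins of the large subunit recruit the elongation factors that drive each step of translation. Rplp0, the base of the stalk, read 22546 and 27110.0 without LIF, against 25936 and 31071 with LIF (log2 change -0.20, interval -0.63 to 0.24). The change was -0.20 between the arrays numbered 1 and again between those numbered 2, and it did not pass (adjusted p = 0.76 in limma). Rplp2, one of the flexible tips, read 29472 and 34881 without LIF, against 32630 and 32408 with LIF (log2 change -0.02, interval -0.42 to 0.38). The arrays with LIF lay between the arrays without LIF.

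The small subunit decodes the message. Its 20 tested members had a median log2 change of -0.03, with 0 called and 13 below 0 (65.0%). Rps15, a protein of the small subunit's head, read 21727 and 23894.5 without LIF, against 24746 and 27272 with LIF (log2 change -0.19, interval -0.58 to 0.20, adjusted p = 0.73 in limma). The groups were apart for this probe set, but the other probe set of Rps15 read 18079 and 24953 without LIF, against 18917 and 17058 with LIF, a log2 change of 0.24. Rps7 read 31583 and 33188 without LIF, against 33974 and 36051 with LIF (log2 change -0.11, interval -0.49 to 0.26). Its other probe set overlapped between the groups, at 28461 and 30202 without LIF, against 28661 and 31449 with LIF (log2 change -0.03). Rps4x, encoded on the X chromosome, read 29641 and 37646 without LIF, against 35327 and 39107 with LIF (log2 change -0.15, interval -0.59 to 0.28).

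Several small subunit proteins with further known roles read slightly above 0, and below 0 with a common median per array. Rps6, the substrate of the S6 kinases downstream of mTORC1, read 1291 and 1207 without LIF, against 1155 and 1083 with LIF (log2 change 0.16, interval -0.28 to 0.60). This was the highest value among small subunit members, and it did not pass (adjusted p = 0.81 in limma). Rps3, which lies at the entry of the message channel, read 23797.5 and 30016 without LIF, against 24382 and 26582.5 with LIF (log2 change 0.07, interval -0.36 to 0.50). Rps19, the gene most often mutated in Diamond-Blackfan anaemia in humans, read 22787 and 29745 without LIF, against 22920.3 and 27464 with LIF (log2 change 0.05, interval -0.42 to 0.52). For both genes the arrays without LIF spanned those with LIF. Rpsa, also known as the laminin receptor, read 27351 and 35591 without LIF, against 28400 and 32928 with LIF (log2 change 0.03, interval -0.43 to 0.49).

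The 6 paralogs had a standard deviation of 0.24 over genes, a median log2 change of -0.10 and 0 calls. Rpl39l, a paralog of Rpl39 best known from mouse male germ cells, read 4362 and 6994.5 without LIF, against 6885.5 and 9002 with LIF. The array without LIF numbered 2 lay just above the array with LIF numbered 1, so the groups overlapped. Its mean signal was 5678 ± 1861 without LIF and 7944 ± 1497 with LIF (SD, n = 2), 1.43-fold lower without LIF (log2 change -0.51, interval -1.13 to 0.11), with the lowest p of any member (adjusted p = 0.54 in limma). The change was -0.66 between the arrays numbered 1 and -0.36 between those numbered 2. With the array numbered 2 without LIF left out it was -0.85, and with the array numbered 1 without LIF left out it was -0.17. A fit with the array number as a replicate block called Rpl39l (adjusted p = 0.033 in limma), along with 6.75% of all tested genes. Its partner Rpl39, a small protein at the exit tunnel, read 489 and 241 without LIF, against 361 and 167.5 with LIF (log2 change 0.48, interval -0.65 to 1.61, adjusted p = 0.78 in limma). Both arrays numbered 1 were above both arrays numbered 2, by 1.02 without LIF and 1.11 with LIF on the log2 scale, which is more than the difference between the groups. The value for Rpl39 was -0.03 with array 1 without LIF left out and -0.07 with array 2 with LIF left out.

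Rpl7l1, a paralog of Rpl7, read 3499 and 3080.0 without LIF, against 4477 and 3506 with LIF (log2 change -0.27, interval -0.73 to 0.19, adjusted p = 0.67 in limma). The groups were apart by little, and its other probe sets read -0.43 and -0.17. Rpl7 itself read 25329 and 34945 without LIF, against 29143 and 33394 with LIF (log2 change -0.07). Rpl22l1, whose message Rpl22 protein represses in mouse, read 16432 and 20869 without LIF, against 15946 and 18137 with LIF (log2 change 0.12, interval -0.32 to 0.56). Neither passed, and the difference between Rpl22 and Rpl22l1 was not tested; only 1 of the 3 Rpl22 probe sets read below 0. Rps27l, a p53-inducible paralog of Rps27, read 17455 and 27988 without LIF, against 17613 and 24035 with LIF (log2 change 0.10, interval -0.53 to 0.74). Rps4l, a paralog of Rps4x, read 12086.5 and 17209 without LIF, against 14898 and 15438 with LIF (log2 change -0.07). Rpl3l, which takes the place of Rpl3 in heart and skeletal muscle, was dim, at 106 and 67.2 without LIF, against 135 and 63.1 with LIF (log2 change -0.13, interval -1.37 to 1.12), and its arrays again differed more by number than by group.

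Intervals were narrower for brighter probe sets, with a median standard error of 0.18 over members with a mean log2 signal over 14 and 0.50 over tested members under 10. The first level was reached by 36 members, with signals between 15946 and 45088, and their changes lay between -0.22 and 0.12. The 85 other tested genes above that level also differed little, with a standard deviation of 0.14 over genes, a median change of -0.07 and 96.5% under 1.3-fold. Small changes were therefore shared by bright probe sets of other genes, and whether the brightest signals are compressed was not tested. Between the log2 levels of 10 and 14 lay 8 members, and 4 tested members lay below 10. Rps27, a zinc finger protein of the small subunit, was among the last, at 342 and 136 without LIF, against 321 and 170 with LIF (log2 change -0.12, interval -1.33 to 1.10). Rps16 was the member below the filter, listed at 3.9 and 0.8 without LIF, against 1.2 and 0.8 with LIF on its only probe set with 1 symbol, and it was not tested.

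The 49 members had 105 probe sets, 99 of them above the filter. When every probe set was tested 0 of these passed, as did 0 of all 31526, so that count says nothing about the members. The 68 with a mean log2 signal over 14 lay between -0.33 and 0.24. Only Rps24, a small subunit protein with 6 probe sets, had probe sets above the filter that differed by 1 or more. Its brightest read 27402.5 and 32430 without LIF, against 28241.5 and 32197 with LIF (log2 change -0.02), while its dimmest read 57.2 and 51.7 without LIF, against 7.6 and 61.8 with LIF (log2 change 1.33), so that 1 array with LIF decided that value. A further 110 probe sets carried a ribosomal protein symbol together with other symbols. The 106 of them above the filter had a median log2 change of -0.02, from -0.08 at the 25th to 0.04 at the 75th percentile, with 0 called.

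The arrays numbered 1 and 2 differed more for these genes than the groups did. Of the 48 tested members 39 (81.2%) were higher on the array numbered 2 in both groups, which held for 32.0% of all tested genes and for 83.5% of the other genes with a mean log2 signal over 14. The median of array 2 minus array 1 was 0.30 without LIF and 0.18 with LIF over the members. Lower on the array numbered 2 in both groups were 5 members. These were Rpl39, Rps27 and Rpl3l, all dim, and the brighter Rps6 and Rpl7l1, with mean log2 signals of 10.2 and 11.8. Between the arrays numbered 1 the median change was -0.10, with 37 members below 0, and between those numbered 2 it was 0.01, with 22 below 0. For 27 members (56.2%) the sign differed between the numbers, against 34.9% of all tested genes. The median moved to 0.09 with array 1 without LIF left out and to -0.20 with array 2 without LIF left out, so its sign depended on single arrays. A control probe set for 18S ribosomal RNA was also higher on the arrays numbered 2, at 248 and 636.5 without LIF, against 151 and 2022 with LIF, and its part in the difference between the numbers was not tested. The labels give these numbers without saying what they stand for.

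**Figure D3:**
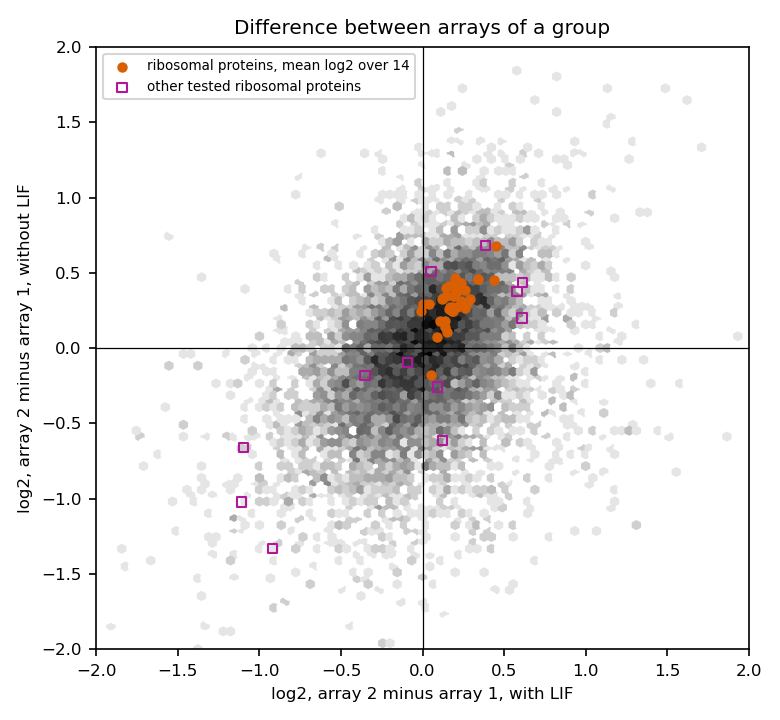
Log2 difference between array 2 and array 1, without LIF on the vertical axis and with LIF on the horizontal axis; grey cells count all tested genes within the axes, orange points are the 36 members with a mean log2 signal over 14 and open squares the 12 other tested members. Most orange points lie at the upper right, where 39 of the 48 members are found.

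Genes of the same pathway were read from the same fit. It called 0.145% of all tested genes, so 0 calls in a short list says little. An unadjusted p of 0.05 or less was found for 10.9% of all tested genes. Fau, the 1 ribosomal protein gene outside the naming rule that was tested, encodes a ubiquitin-like protein fused to a small subunit protein and read 18406 and 23003 without LIF, against 19705 and 21434 with LIF (log2 change 0.00, interval -0.42 to 0.43). Among 19 tested translation factors and other genes listed with TOP messages the median was -0.03, with 0 called and 0 at an unadjusted p of 0.05. Npm1 is on this list and also among the assembly factors below. The 4 lowest p were those of Eif3k, Eef1d and Eif3a, at -0.21, -0.20 and -0.17, and of the translocase Eef2, at 0.11. Among 12 tested genes of mTORC1 and its TOP effectors the median was -0.01, also with 0 called and 0 at an unadjusted p of 0.05. Larp1, the TOP-binding protein, read 5018.5 and 6626 without LIF, against 4823 and 5642 with LIF (log2 change 0.14), and Deptor, Rheb and Akt1s1 read -0.24, -0.15 and -0.15.

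Genes that build ribosomes had medians below 0, and none of them passed, against 0.145% of all tested genes. The 62 tested assembly factors had a median of -0.15, with -0.19 and -0.08 within the arrays numbered 1 and 2. Of the 62, 50 were below 0 (80.6%, against 40.6% of all tested genes). Most of the 62 had a mean log2 signal between 10 and 14. At that level 41.7% of all probe sets without controls were above 0, with a median of -0.05, so part of the excess was shared by other probe sets of like brightness. Of the 62 assembly factors 0 were called and 0 had an unadjusted p of 0.05 or less, against 10.9% of all tested genes for the latter. Pes1, a large subunit assembly factor, read 4630.4 and 5856 without LIF, against 6457 and 7368 with LIF (log2 change -0.41, interval -0.85 to 0.04, adjusted p = 0.50 in limma). Nip7, Nop58 and Rrp9 read -0.34, -0.33 and -0.35. The 14 tested subunits and factors of RNA polymerase I, which transcribes the ribosomal RNA precursor, had a median of -0.27, with -0.27 and -0.21 within the numbers. Of these 0 were called and 1 had an unadjusted p of 0.05 or less, against 10.9% of all tested genes for the latter. This was Znrd1, which read 1708 and 1996 without LIF, against 2558 and 2596 with LIF (log2 change -0.48, interval -0.91 to -0.06, adjusted p = 0.39 in limma). Twistnb, Taf1d and Taf1c read -0.32, -0.42 and -0.41. Both arrays without LIF were below both with LIF for 6 of the 14 polymerase genes and 14 of the 62 assembly factors, against 15.2% of all tested genes, and above both for 1 gene of each list, against 27.3%. The difference between these lists and the ribosomal proteins was not tested.

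**Figure D4:**
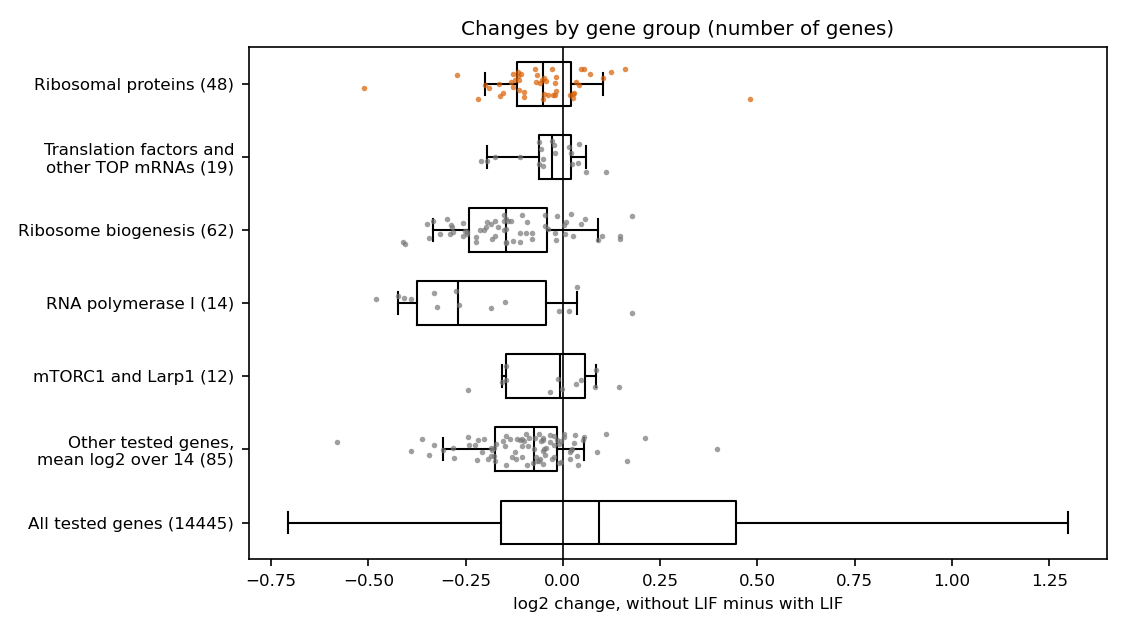
Log2 change (without LIF minus with LIF) by gene group, with the number of genes; boxes span the 25th to 75th percentile with the median as a line, whiskers the 5th to 95th percentile, and points are single genes (not drawn for all tested genes). Ribosomal proteins lie in a narrow band around a median of -0.05, and the medians of ribosome biogenesis and RNA polymerase I lie at -0.15 and -0.27.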

How the data were processed

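Total RNA of CGR8 cells was labelled as biotinylated cRNA per the labels' protocols and measured on 4 arrays. Per the submitters' processing notes, the authors' deposited intensities came from MAS5, and their range shows a linear scale. The MAS5 version and a genome build are not given in the sources used here. The number of arrays limits the precision. The table held 45101 probe sets, of which 34945 had 1 symbol in the platform annotation, 932 several, 9160 none and 64 were controls. Entrez identifiers matched to RefSeq (GRCm38.p6) changed 0 symbols, and start windows came from RefSeq. The 1 value at 0 was replaced by the smallest value above 0 before log2. Genes with a mean log2 signal above the 30th percentile of probe sets, 4.51 (a signal of 22.9), entered limma 3.58.1 (R 4.3.3; lmFit, eBayes with trend). The model held the group alone, leaving 2 residual degrees of freedom, and two-sided p-values were adjusted over 14445 genes after Benjamini-Hochberg at 0.05. Intervals are moderated 95% intervals. The fit was run on simulated data with independent noise and planted changes far larger than those of the members. That run did not include the spread shared by same-numbered arrays. List medians had no test. Figures used matplotlib 3.10.9.

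Alternatives changed the filter, the pseudocount, the scaling, the variance model, the probe set, the threshold, the arrays used and the replicate number as a block. Named members were the 10 with the smallest p, the 5 highest and 5 lowest changes, paralogs with their partners, a fixed set (Rplp0, Rplp2, Rpsa, Rpl11, Rps6, Rps19, Rps3, Rpl38, Fau), members below the filter and members with 3 or more probe sets of opposite sign that differ by 1 or more. Up to 4 genes of each other list were named by smallest p. The members and lists were chosen with earlier results of these data known.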

Additional observations from a re-analysis of the deposited data

How the results depend on the processing

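Among the alternatives that kept 2 arrays a group, no ribosomal protein gene passed except Rpl39l. It passed with the replicate block (adjusted p = 0.033 in limma, 1 member lower). Fits with a single array left out hold 1 array in a group and are given as changes only. The log2 change of Rpl39l was -0.51 in that block fit, which called 6.75% of all tested genes, and -0.45 with quantile normalization as well (adjusted p = 0.064). The block rests on 2 pairs that share only a number; deviations of same-numbered arrays correlated at r = 0.29 over tested genes and 0.83 over members, and genes are not independent replicates. With a common median per array the median of all genes moved to -0.20, and the medians were -0.34 over all members, -0.36 for the large subunit and -0.33 for the small. That scaling moves every gene alike, so it cannot change the distance of the members from other genes. Leaving out single arrays gave medians of -0.20 to 0.086 over members, -0.23 to 0.044 for the large subunit and -0.18 to 0.11 for the small. Within the arrays numbered 1 the large subunit median was -0.14. The small subunit median was 0.040 with the mean of all probe sets and 0.16 with the brightest plain probe set, for which 11 of its genes were left. Over the 10 alternatives that can move genes apart from each other, 45 of 211 values of 22 named members had the opposite sign. Of these, 0 were past the threshold. Rpl39l, Rpl7l1, Rplp0 and Rps6 kept their sign in all 10, while Rps6 read -0.13 with a common median per array. Rpl11 and Rpl13a kept their sign wherever they had a value. They have no plain probe set, so the brightest plain probe set gave no value for them.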

Other observations

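The direction of the ribosomal protein probe sets varied with their brightness, in no steady order. All 6 that were not above the filter read higher without LIF, against 63.9% of all probe sets without controls at that level. They belong to genes such as Rps6, Rps4x and Rpsa, whose brightest probe sets read 0.16, -0.15 and 0.03 on the log2 scale, and at such low signals their fold changes have little meaning. Between the filter and a log2 signal of 10, 10 of 17 read higher (58.8%, median log2 change 0.19), against 64.3% of all probe sets (median 0.18). From 10 to 14, 3 of 14 read higher (21.4%, median -0.12), against 41.7% of all (median -0.05). Above 14, 25 of 68 read higher (36.8%, median -0.03), against 26.3% of all (median -0.05). These differences were not tested.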
